A study of Mus musculus with 59 samples.

Results

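The comparison concerns 15 induced pluripotent stem cell (iPSC) clones, of 59 mouse lines profiled in all, whose origin label names the animal chimera 2. Of these, 9 clones came from blood cells, with 3 each from haematopoietic stem cells (HSCs, iPSC-35 to iPSC-37), granulocyte-macrophage progenitors (GMPs, iPSC-38 to iPSC-40) and granulocytes (iPSC-41 to iPSC-43). The other 6 came from TTFs, the usual short form of tail-tip fibroblasts (iPSC-44 to iPSC-49). The clones were assigned to the 2 classes by their origin labels, and every difference below is the mean of the blood-derived clones minus the mean of the TTF-derived clones.

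Per the series' design text, the somatic cells came from chimeric mice made with embryonic stem cells (ESC) that carry an inducible cassette for myc, Klf4, Oct4 and Sox2, so both classes of clone were reprogrammed with that cassette. All lines, the ESC included, grew in ESC medium with 15% serum and LIF on irradiated mouse embryonic fibroblasts (MEFs), and were preplated for 45 minutes to take out the feeders before RNA was extracted. No age, passage number, sex, drug dose or scan batch is given in the sources used here. The blood and PF-derived clones of mouse 1 and mouse 2 (22 blood-derived clones, 2 PF-derived clones of mouse 1 and 3 of mouse 2, where PF stands for peritoneal fibroblast) and 4 ESC clones, labelled as targeted KH2 cells, served to place the differences. Because all 15 clones come from 1 animal, the p-values measure the spread between clones of that animal and not between animals.

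Reprogramming by the 4 factors switches a somatic cell to the transcription network of the early embryo, led by Oct4, Sox2 and Nanog. Clones derived from different somatic cells can differ in residual expression of the starting cell's genes, in imprinted loci such as Dlk1-Dio3, and in how far germline and metabolic programmes of pluripotent cells are switched on. Cultures on feeders also hold a variable number of embryonic fibroblasts, whose RNA is measured together with that of the stem cells.

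The values are log2 intensities of an Affymetrix array, 1 array per clone, centred so that each array has a mean near 0. A value of 0 is therefore a middle level, and 1 unit of difference is a 2-fold difference in intensity. Over the 11807 genes and the 15 arrays of chimera 2 the 25th percentile of the values was -2.05, the median 0.21 and the 75th percentile 2.32. Arrays of blood-derived clones correlated with each other at 0.994 to 0.998 and arrays of TTF-derived clones at 0.990 to 0.998, and pairs across the classes at 0.984 to 0.995. The median SD of a gene between clones was 0.129 in the blood-derived class and 0.141 in the TTF-derived class.

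One clone stood apart before any comparison. It was seen in the 6165 genes with a mean above 0 over all 59 arrays. In iPSC-46, a TTF-derived clone, 174 of the 213 such genes of chromosome 14 were below the median of the other TTF-derived clones. Their median deviation was -0.54 (0.687 times the intensity). Of the 534 such genes of chromosome 11, the 267 farther from the centromere were mostly higher, 238 of them, with a median over all 267 of 0.34. The other 267 had a median of -0.004. Its other chromosomes had medians between -0.041 and 0.056, and no chromosome of the other 14 clones departed from its class by more than -0.080 to 0.095. The deviation was not tested, and its cause cannot be read from these values. Genes of chromosomes 11 and 14 are given below with and without this clone.

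**Figure D1:**
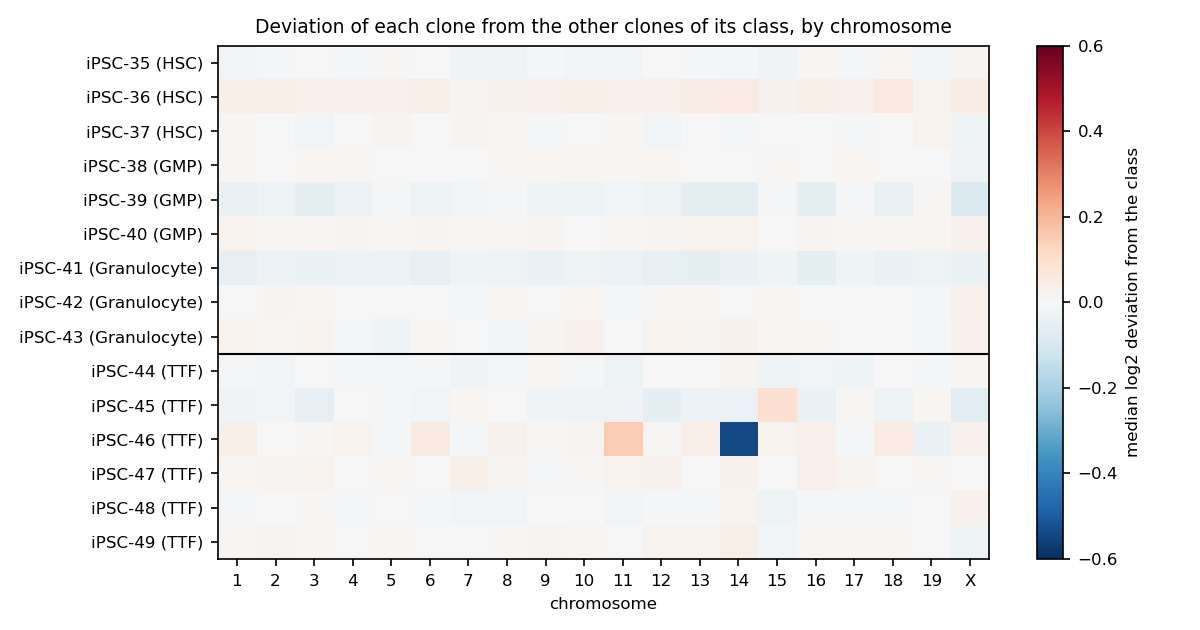
Median log2 deviation of each clone from the other clones of its class (rows, blood-derived clones above TTF-derived clones) for the genes of each chromosome (columns). Only genes with a mean above 0 over all arrays are used. The single dark cell is chromosome 14 of iPSC-46, with a median of -0.54, and its chromosome 11 is the next to stand out.

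The labels were checked against cell type markers. The mean of 6 pluripotency markers lay between 4.44 and 4.58 in blood-derived clones and between 4.34 and 4.53 in TTF-derived clones, high on the array in both. The mean of 6 granulocyte markers lay between -2.96 and -2.58 in blood-derived clones and between -2.89 and -2.59 in TTF-derived clones, and that of 3 keratinocyte markers between -2.08 and -1.87 in blood-derived clones and between -2.09 and -1.75 in TTF-derived clones. None of these 9 markers passed the test. The mean of 8 blood markers lay between -1.70 and -1.50 in blood-derived clones and between -1.60 and -1.34 in TTF-derived clones, with 1 of the 8 higher and 2 lower in blood-derived clones. For Ptprc, the pan-leukocyte phosphatase CD45, the values ran from -3.97 through a median of -3.83 to -3.76 in blood-derived clones and from -4.17 through -3.98 to -3.84 in TTF-derived clones, near the bottom of the array's range in both. The 7 measured fibroblast and feeder markers (of 9) were all lower in blood-derived clones, with means of 0.799 to 1.08 there and 1.44 to 2.22 in TTF-derived clones.

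With limma and Benjamini-Hochberg adjustment at a threshold of 0.05, 3786 of the 11807 genes (32.1%) differed between the classes. Of these, 2148 (18.2%) were higher in blood-derived clones and 1638 (13.9%) were lower. These shares are the background for the list counts below. Most differences were small: the median absolute difference over all genes was 0.126, and 33 called genes (0.279%) were at least 2-fold higher and 94 (0.796%) at least 2-fold lower. The values of the 9 blood-derived clones lay wholly above those of the 6 TTF-derived clones for 803 genes (6.8%) and wholly below for 569 genes (4.82%). Without iPSC-46, 4336 genes were called, among them 3578 of the 3786 in the same direction (94.5%). The blood-derived clones did not differ among themselves at this threshold: 0 of 11807 genes passed the limma test between HSC, GMP and granulocyte origin (0%), with a smallest adjusted p of 0.590 and 476 genes at an unadjusted p under 0.05.

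Fibroblast and feeder genes were lower in blood-derived clones almost throughout. Of 35 measured genes of this list, which holds collagens, matrix proteins and their modifiers, 31 fell, 1 rose and 3 did not pass, with a median difference of -0.98 against 0.0059 over all genes. The mean of the list ran from 1.16 through a median of 1.38 to 1.51 in blood-derived clones and from 1.90 through 2.18 to 2.57 in TTF-derived clones, without overlap, and iPSC-46 held the highest value. In bulk RNA, fewer cells of a type and less RNA per cell cannot be told apart, and the part of feeder cells in these values was not tested.

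Timp3, a matrix-bound inhibitor of metalloproteinases, had log2 intensities from 0.61 through 0.83 to 1.32 in blood-derived clones and from 2.55 through 2.90 to 3.16 in TTF-derived clones, a difference of -1.98 ± 0.11 (SE, n = 9 and 6, adjusted p = 4.93e-08). All 9 blood-derived values lay below all 6 TTF-derived values. Its relative Timp2 differed by -1.48 ± 0.14 (adjusted p = 2.83e-06), with the highest TTF-derived value, 3.38, in iPSC-46, and by -1.37 without that clone. Col1a1, the main chain of type I collagen, ran from 2.26 through 2.66 to 2.92 in blood-derived clones and from 3.18 through 3.65 to 4.11 in TTF-derived clones. Its difference was -1.04 ± 0.12 (adjusted p = 2.17e-05), and -0.97 without iPSC-46. The classes did not overlap for Col1a1 either. Col3a1 (-1.12 ± 0.16), Postn (-1.15 ± 0.13), Thy1 (-0.89 ± 0.13) and Dcn (-0.98 ± 0.11), which encode type III collagen, periostin, a fibroblast surface protein and decorin, fell as well, each without overlap. Fbln5 and Cdh11, an elastic fibre protein and the mesenchymal cadherin, fell by 1.32 and 1.44 on the log2 scale. The exception was Fbln1, another matrix protein, which was 0.51 ± 0.07 higher in blood-derived clones (adjusted p = 9.54e-05), with no overlap of its values.

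Transcription factors and adhesion genes of the mesenchymal state followed the same direction. Of 14 measured genes on this list 10 fell, none rose and 4 did not pass, and the list median was -0.50. Twist2, a helix-loop-helix factor of the dermis, had values from -1.60 through -1.23 to -0.89 in blood-derived clones and from -0.04 through 0.14 to 0.74 in TTF-derived clones (-1.50 ± 0.13, adjusted p = 1.57e-06). Cdh2, or N-cadherin, differed by -1.56 ± 0.12, Prrx1, a homeobox factor of limb mesenchyme, by -1.08 ± 0.12, Foxc2 by -0.94 ± 0.12 and Zeb2, a repressor of E-cadherin, by -0.72 ± 0.11, and none of these overlapped between the classes. S100a4, a calcium-binding protein common in fibroblasts, differed by -1.36 ± 0.11 (adjusted p = 9.79e-07).

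**Figure D2:**
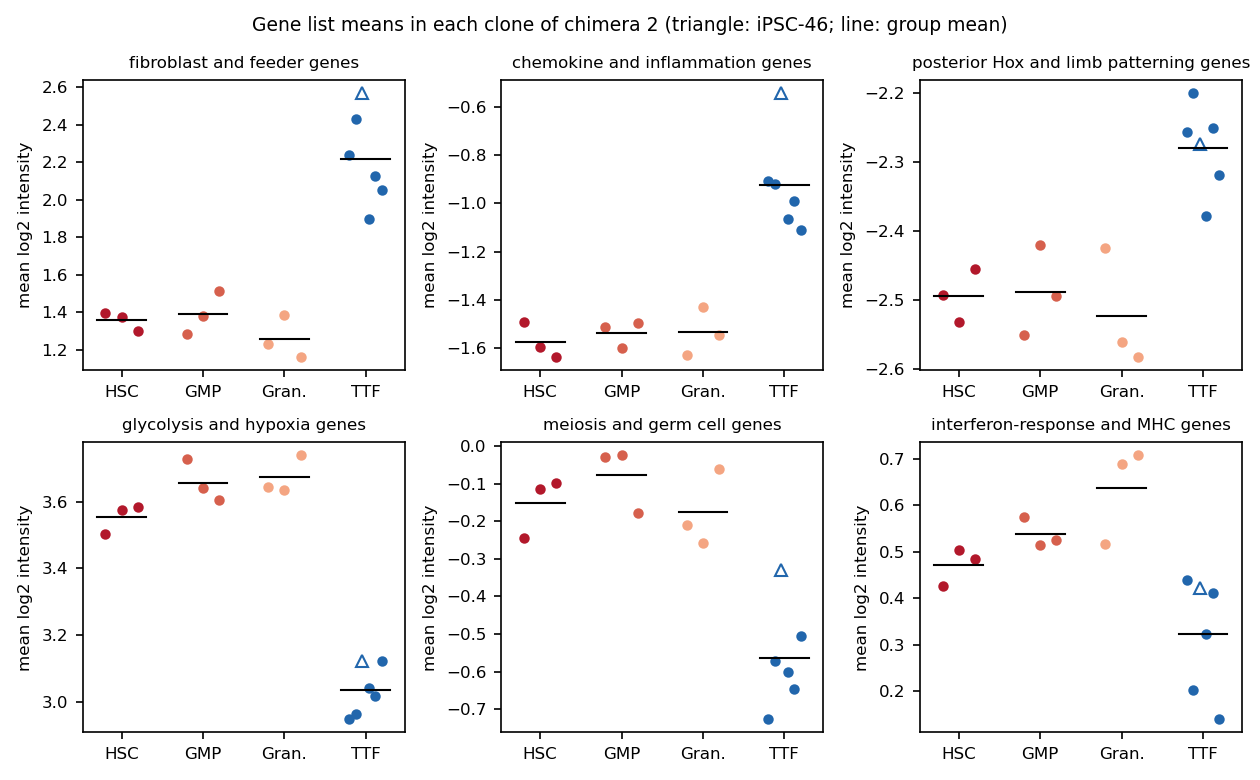
Mean log2 intensity of 6 gene lists (y axes) in each clone of chimera 2 by origin (x axes), with points for clones, a triangle for iPSC-46 and a line for the mean of each origin. The fibroblast list lies between 1.16 and 1.51 in the 9 blood-derived clones and between 1.90 and 2.57 in the 6 TTF-derived clones, and the glycolysis list runs the other way.

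The largest falls in blood-derived clones included several receptors, growth factors and secreted proteins outside that list. Nrp1, a co-receptor for semaphorins and VEGF, ran from -0.90 through -0.58 to 0.07 in blood-derived clones and from 1.29 through 1.85 to 2.00 in TTF-derived clones. Its difference, -2.18 ± 0.14, was the largest fall of all 11807 genes (0.220 times the intensity, adjusted p = 1.98e-07). The classes were more than 1 log2 unit apart at their nearest clones. The related Nrp2 fell by 0.93 on the log2 scale (SE 0.08), and was among the 5 genes with the smallest p between the blood origins, none of which passed after adjustment. Its mean was -0.77 in the clones from HSCs, -0.90 in those from GMPs and -1.43 in those from granulocytes. Alcam, an adhesion molecule of the immunoglobulin family (-1.83 ± 0.10), Olr1, the lectin-like receptor for oxidized LDL (-1.92 ± 0.13), Ereg, an EGF family ligand (-1.83 ± 0.17), Mgp, matrix Gla protein (-1.80 ± 0.12), Ccn4, a Wnt-induced matricellular protein (-1.75 ± 0.18), and Prl2c2, a prolactin family hormone also called proliferin (-1.94 ± 0.18), were lower without overlap. Tfpi2 and Serpinb9b, both protease inhibitors, were lower by 1.79 and 1.66 log2 units. Sprr2a1, a cornified envelope protein of the epidermis, differed by -2.08 ± 0.35, but its values overlapped, since the highest blood-derived clone had -0.91 and the lowest TTF-derived clone -1.21.

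Chemokine and inflammation genes fell in 13 of 22 measured members, with none rising and a list median of -0.55. Ccl2 and Ccl7, monocyte chemokines encoded side by side on chromosome 11, ran from -1.18 through -1.02 to -0.78 and from -1.99 through -1.61 to -1.37 in blood-derived clones, and from -0.15 through 0.10 to 1.26 and from -0.65 through -0.35 to 1.05 in TTF-derived clones. In both genes the highest value was that of iPSC-46. The differences were -1.29 ± 0.17 and -1.54 ± 0.21, and -1.09 and -1.30 without that clone. Csf1, the macrophage growth factor, differed by -1.40 ± 0.14, and Ptgs2, the inducible cyclooxygenase, by -1.25 ± 0.12 (adjusted p = 2.99e-06).

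Genes of Nodal and activin signalling, a branch of the TGF-beta family, did not move one way: of 16 measured genes 4 rose, 4 fell and 8 did not pass, with a median of 0.03. Inhba, the beta A subunit of activin A, had values from -0.79 through -0.46 to -0.17 in blood-derived clones and from 1.05 through 1.18 to 1.64 in TTF-derived clones (-1.69 ± 0.09, adjusted p = 4.93e-08). Fst, the secreted activin antagonist follistatin, fell by 1.47 and Tgfbr2, the type II TGF-beta receptor, by 1.15 on the log2 scale. Acvr1b, the type I activin receptor ALK4, was 0.50 ± 0.05 higher in blood-derived clones, and Bambi, a decoy receptor, 0.41 ± 0.07 higher. For Tgfbr2, 1 of its 3 probe sets went the other way, and for Acvr1b, 1 of 2.

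Of 20 measured primitive streak and mesoderm genes 7 fell in blood-derived clones, none rose and 13 did not pass, with a median of -0.15. Over all genes, 13.9% fell. Mixl1, a homeobox gene of the streak, ran from -1.99 through -1.65 to -1.55 in blood-derived clones and from -1.07 through -0.95 to -0.01 in TTF-derived clones (-0.97 ± 0.14), with no overlap. Wnt3 differed by -1.02 ± 0.18 (-1.11 without iPSC-46), Fgf8 by -0.65 ± 0.19 and Eomes by -0.60 ± 0.16. Fgf8 and Eomes overlapped, and in both the lowest TTF-derived value was that of iPSC-46, -1.57 for Fgf8 and -1.14 for Eomes. Wnt8a, a Wnt ligand that is not on this list, was among the 15 largest falls of all genes. Its values ran from -2.40 through -2.07 to -1.66 in blood-derived clones and from -1.21 through 0.11 to 0.78 in TTF-derived clones (-2.05 ± 0.25, adjusted p = 2.84e-05).

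Among the 39 measured posterior Hox and limb patterning genes, 15 fell, 1 rose and 23 did not pass, with a median of -0.14. All 39 had a mean below 0 in blood-derived clones and 38 did in TTF-derived clones, so these were differences at the low end of the array. Hoxc8 ran from -2.43 through -2.03 to -1.88 in blood-derived clones and from -1.31 through -0.97 to -0.18 in TTF-derived clones, where iPSC-46 held the highest value, and its difference was -1.15 ± 0.14, or -1.005 without that clone. Hoxd9 (-0.72 ± 0.11), Hoxa10 (-0.55 ± 0.10) and Hoxb9 (-0.46 ± 0.08, and -0.43 without iPSC-46), posterior members of the other 3 clusters, and Cdx2 (-0.76 ± 0.14), an upstream caudal factor, fell too. The other of the 2 Cdx2 probe sets differed by only -0.06 (limma adjusted p = 0.499). Meis2, a homeobox cofactor of Hox proteins, differed by -1.20 ± 0.16, with values from -1.65 to -0.52 in blood-derived clones and from -0.37 to 0.32 in TTF-derived clones.

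In the other direction, glycolysis and hypoxia genes were higher in blood-derived clones. Of 33 measured genes 30 rose and none fell, and the list median was 0.57. The list mean ran from 3.50 through 3.64 to 3.74 in blood-derived clones and from 2.95 through 3.03 to 3.12 in TTF-derived clones. In 27 of the 33 genes the blood-derived values lay wholly above the TTF-derived ones, against 6.8% of all genes. Hypoxia-inducible factor binds DNA at a core of the letters ACGTG, and many genes of this list are among its known targets. Among 45 listed promoters of 29 of these genes, in the 300 bases from 250 before to 50 after the start, 26 (57.8%) held ACGTG on either strand, against 6447 of all 32851 promoters (19.6%), a description that shows no binding. The promoters of Egln3 and Bnip3 are printed because both genes belong to the best separated members. They were taken from RefSeq on GRCm38.p6, on the minus strand at chr12:54203825-54204124 and chr7:138909457-138909756, and run 5′ to 3′ with the core in capitals. In Bnip3 the core is part of CACGTG, which reads the same on both strands.
Egln3: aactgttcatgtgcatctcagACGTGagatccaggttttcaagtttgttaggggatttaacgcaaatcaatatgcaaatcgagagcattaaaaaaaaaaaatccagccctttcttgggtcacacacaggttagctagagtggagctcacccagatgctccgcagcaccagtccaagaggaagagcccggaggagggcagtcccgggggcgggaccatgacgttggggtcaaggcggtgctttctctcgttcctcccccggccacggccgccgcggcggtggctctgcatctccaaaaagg
Bnip3: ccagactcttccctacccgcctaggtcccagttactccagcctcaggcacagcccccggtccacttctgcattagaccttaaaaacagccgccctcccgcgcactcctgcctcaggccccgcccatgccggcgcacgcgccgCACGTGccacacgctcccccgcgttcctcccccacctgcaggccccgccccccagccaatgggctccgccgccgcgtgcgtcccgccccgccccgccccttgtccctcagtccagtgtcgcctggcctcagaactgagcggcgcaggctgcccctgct

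Egln3, the prolyl hydroxylase that marks hypoxia-inducible factor for decay and is itself induced by it, had log2 intensities from 3.15 through 3.48 to 3.53 in blood-derived clones and from 1.51 through 1.76 to 2.42 in TTF-derived clones. The difference was 1.57 ± 0.13 (2.96-fold, adjusted p = 9.96e-07), and the highest TTF-derived value was that of iPSC-46. Bnip3, a mitophagy receptor, ran from 4.64 through 4.82 to 4.96 in blood-derived clones and from 3.53 through 3.82 to 4.11 in TTF-derived clones (0.99 ± 0.08, adjusted p = 1.57e-06). Both genes separated the classes completely. Adm, the vasodilator peptide adrenomedullin, differed by 1.56 ± 0.15 and Ndrg1, a stress-induced gene, by 1.55 ± 0.11, with values from 0.50 to 1.32 and from 1.72 to 2.42 in blood-derived clones, and from -0.96 to 0.25 and from 0.16 to 0.71 in TTF-derived clones. Aldoc, a glycolytic aldolase on chromosome 11, was 1.09 ± 0.13 higher (1.02 without iPSC-46), and Ddit4, an inhibitor of mTOR signalling, 0.81 ± 0.08 higher. Ero1a, the oxidase of the endoplasmic reticulum that makes disulphide bonds, lies on chromosome 14 and was 0.98 ± 0.06 higher (adjusted p = 4.93e-08), and 0.96 higher without iPSC-46. Outside the list, Pygl, the liver glycogen phosphorylase (1.26 ± 0.15), Ampd3, an AMP deaminase (1.49 ± 0.12), and Ccng2, a cyclin of growth arrest (1.16 ± 0.10), were among the 15 largest rises.

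Meiosis and germ cell genes formed the next group that was higher in blood-derived clones. Of 36 measured genes 22 rose, 1 fell and 13 did not pass, with a median of 0.40. The list mean ran from -0.26 through -0.11 to -0.03 in blood-derived clones and from -0.73 through -0.59 to -0.33 in TTF-derived clones, and the value of iPSC-46 was the highest of its class. In many germline genes of pluripotent cells, repressors related to Myc and E2F6 are known to bind at CACGTG and TTCCCGC. Among 40 listed promoters of 29 of these genes, 16 (40.0%) held CACGTG and 10 (25.0%) held TTCCCGC on either strand, against 7.15% and 4.6% of all 32851 promoters. Both shares describe called and uncalled list members together and show no binding. Stag3 and Sycp3 are printed because their promoters hold both motifs, which are in capitals (GCGGGAA is TTCCCGC read on the other strand, and the letters of the 2 motifs do not overlap). They lie on the plus strand, Stag3 at chr5:138280259-138280558 and Sycp3 at chr10:88459337-88459636 of GRCm38.p6, from RefSeq.
Stag3: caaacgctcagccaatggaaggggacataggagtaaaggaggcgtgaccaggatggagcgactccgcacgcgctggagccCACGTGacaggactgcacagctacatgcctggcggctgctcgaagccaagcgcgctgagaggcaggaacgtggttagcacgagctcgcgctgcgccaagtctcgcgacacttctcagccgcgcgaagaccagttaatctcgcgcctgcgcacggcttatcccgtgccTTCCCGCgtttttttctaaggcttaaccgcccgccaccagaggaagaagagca
Sycp3: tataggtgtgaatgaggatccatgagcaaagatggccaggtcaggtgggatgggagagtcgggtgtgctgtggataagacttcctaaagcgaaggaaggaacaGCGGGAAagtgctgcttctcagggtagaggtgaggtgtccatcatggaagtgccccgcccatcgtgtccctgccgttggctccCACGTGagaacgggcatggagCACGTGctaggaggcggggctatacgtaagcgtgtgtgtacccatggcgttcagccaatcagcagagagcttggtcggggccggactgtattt

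Smc1b, the meiotic subunit of the cohesin ring, ran from 0.95 through 1.43 to 2.16 in blood-derived clones and from -0.73 through -0.43 to 0.86 in TTF-derived clones, where the value of iPSC-46 was again the highest. The difference was 1.74 ± 0.23 (3.34-fold, adjusted p = 4.44e-05), and 1.97 without that clone. Stag3, another meiotic cohesin subunit, was 0.98 ± 0.17 higher, and its classes overlapped in 1 clone, iPSC-46 with 1.56 against a lowest blood-derived value of 1.37. Rec8, the kleisin of the same ring, lies on chromosome 14 and ran from 0.15 through 0.18 to 0.43 in blood-derived clones and from -0.97 through -0.68 to -0.55 in TTF-derived clones (0.92 ± 0.06, and 0.96 without iPSC-46). Sycp3, a protein of the synaptonemal axis, differed by 1.08 ± 0.11, Hormad1, an axis-associated checkpoint protein, by 1.14 ± 0.15 and Ybx2, a germ cell RNA-binding protein on chromosome 11, by 0.91 ± 0.13 (1.05 without iPSC-46). All 3 named cohesin subunits of meiosis thus rose, and of these only Stag3 overlapped between the classes. Kit, the receptor of primordial germ cells and of blood progenitors, was 0.57 ± 0.11 higher.

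Interferon-response and MHC genes rose in 10 of 25 measured members and fell in none, with a median of 0.18. Over all genes, 18.2% rose. Interferon-stimulated genes carry response elements with 2 copies of GAAA spaced by 2 bases. A pair of GAAA repeats with 2 bases of any kind between them, on either strand, was held by 10 of 27 listed promoters of 22 of these genes (37.0%), against 3.44% of all 32851 promoters. The list was drawn up for the interferon response, so this share is no result about the clones. It counts called and uncalled members together and shows no binding. Gbp3 and Igtp are printed because they encode the 2 kinds of interferon-gamma induced GTPase that rose here, with the motif in capitals. Both lie on the plus strand, Gbp3 at chr3:142559794-142560093 and Igtp at chr11:58199306-58199605 of GRCm38.p6, from RefSeq.
Gbp3: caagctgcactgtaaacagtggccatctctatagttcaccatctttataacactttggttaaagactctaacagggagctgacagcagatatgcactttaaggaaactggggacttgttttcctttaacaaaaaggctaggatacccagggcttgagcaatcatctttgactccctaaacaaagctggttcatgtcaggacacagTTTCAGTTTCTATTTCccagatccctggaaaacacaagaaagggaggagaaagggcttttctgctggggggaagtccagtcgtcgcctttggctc
Igtp: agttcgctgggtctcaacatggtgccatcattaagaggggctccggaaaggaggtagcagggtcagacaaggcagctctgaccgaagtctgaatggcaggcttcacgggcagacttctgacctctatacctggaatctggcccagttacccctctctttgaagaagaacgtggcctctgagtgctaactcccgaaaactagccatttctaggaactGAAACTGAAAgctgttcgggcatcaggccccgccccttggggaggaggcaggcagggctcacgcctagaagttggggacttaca

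Ddx60, a helicase that assists the sensing of viral RNA, was outside the list and showed the largest rise of all genes. Its values ran from -1.45 through -0.82 to -0.03 in blood-derived clones and from -3.62 through -3.22 to -2.71 in TTF-derived clones, a difference of 2.41 ± 0.20 (5.33-fold, adjusted p = 9.96e-07). The 6 TTF-derived values lay near the lower end of the array, so the fold there depends on the array's background. Oasl2, a protein related to the oligoadenylate synthetases, differed by 1.12 ± 0.10, and Igtp by 0.74 ± 0.07 with values from 0.53 through 0.76 to 1.14 in blood-derived clones and from -0.14 through 0.02 to 0.26 in TTF-derived clones. These 3 genes did not overlap between the classes. Gbp3 (0.82 ± 0.15), Irgm2, an immunity-related GTPase (0.42 ± 0.10), Stat2 (0.64 ± 0.12) and Irf1 (0.47 ± 0.07), both transcription factors of the interferon response, rose with overlap. Gbp7, not on the list, was 0.99 ± 0.14 higher, without overlap. For Igtp, Irgm2 and Irf1, which lie on chromosome 11, the differences without iPSC-46 were 0.73, 0.46 and 0.46.

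**Figure D3:**
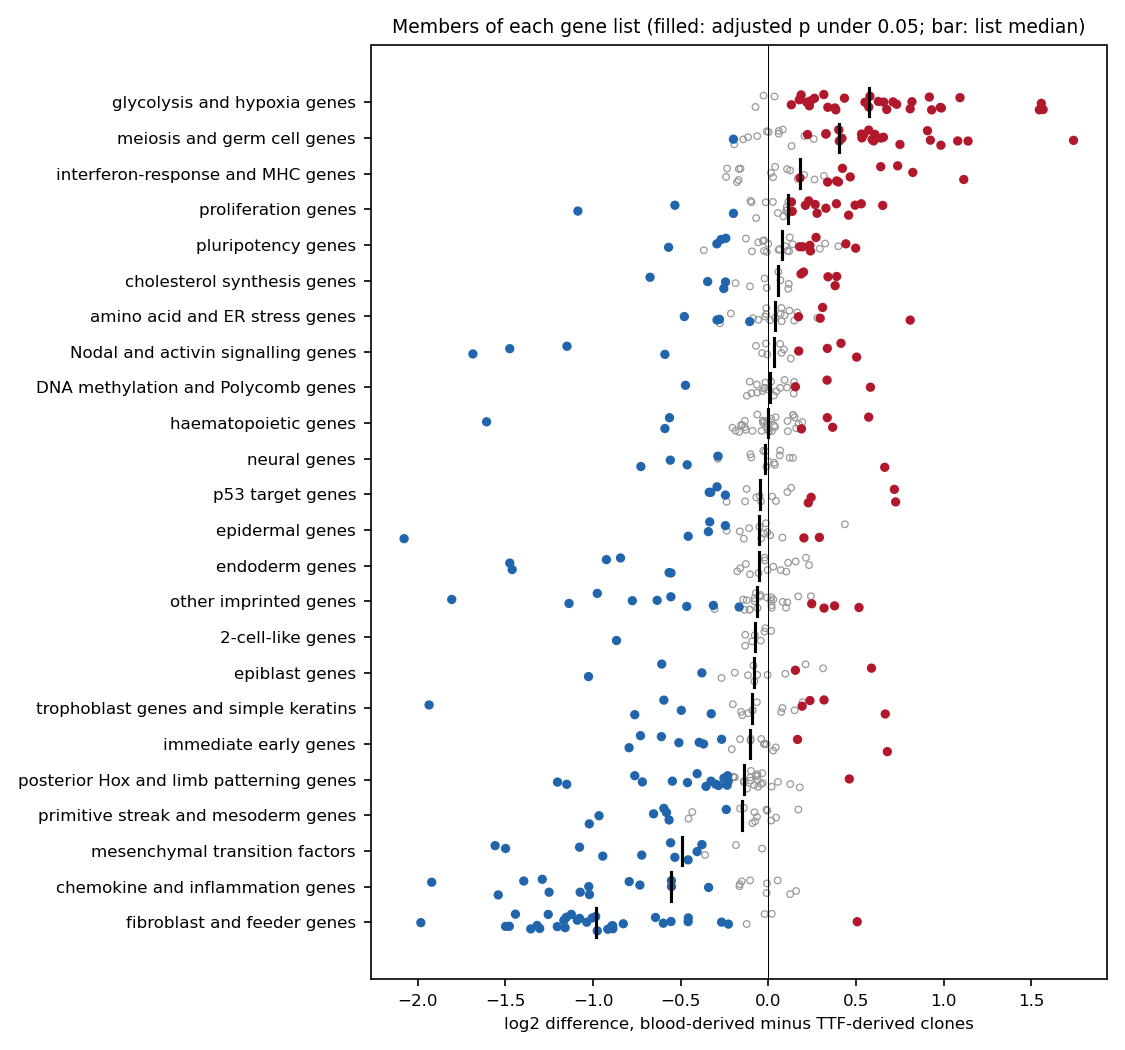
Log2 difference, blood-derived minus TTF-derived clones (x axis), of each member of the 24 gene lists with at least 5 measured genes (rows), filled red or blue where higher or lower with an adjusted p under 0.05, open otherwise, with a bar at the list median. The medians run from 0.57 for glycolysis and hypoxia genes to -0.98 for fibroblast and feeder genes.

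Several imprinted genes, which are expressed from the allele of 1 parent, were lower in blood-derived clones. Meg3 and Rian, noncoding RNAs of the maternal allele of the Dlk1-Dio3 region on chromosome 12, varied more between TTF-derived clones than most genes. Meg3 was at 3.13, 1.88, 1.85, 3.17, 0.49 and 3.19 in TTF-derived clones iPSC-44 to iPSC-49, and ran from 0.17 through 0.57 to 1.43 in blood-derived clones. The TTF-derived class thus held 3 clones near the ESC mean of 2.97 ± 0.29 (SD, n = 4), 2 between and 1, iPSC-48, within the range of the blood-derived clones. Rian had the same clones high, with 3.78, 3.73 and 3.62 in iPSC-44, iPSC-47 and iPSC-49, and again the lowest value of its class, 1.41, in iPSC-48, against 0.42 through 0.81 to 2.24 in blood-derived clones. The differences were -1.54 ± 0.36 for Meg3 (adjusted p = 0.00429) and -1.78 ± 0.37 for Rian (adjusted p = 0.00173), and the classes overlapped for both. Dlk1, the paternally expressed Notch-like protein of the region, differed by -0.53 ± 0.13 (adjusted p = 0.00648), also with overlap.

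Mcts2, a paternally expressed retrogene within an intron of H13 on chromosome 2, was uniform in TTF-derived clones and varied in blood-derived ones. It had values of 1.32, 1.01 and 2.51 in the clones from HSCs, 0.91, 1.64 and 2.78 in those from GMPs, 2.94, 2.49 and 3.57 in those from granulocytes, and from 3.76 to 4.09 in TTF-derived clones. Its SD was 0.94 in blood-derived clones and 0.12 in TTF-derived clones, and the ESC had 3.46 ± 0.01 (SD, n = 4). The difference was -1.81 ± 0.27 (adjusted p = 0.000118). Of the 36 measured imprinted genes outside the Dlk1-Dio3 region, Mcts2 included, 13 were called, against 32.1% of all genes. Of these, 9 fell and 4 rose, and the list median was -0.07. Magel2 and Ndn, neighbours in the paternally expressed Prader-Willi cluster, differed by -1.14 ± 0.14 and -0.63 ± 0.15, and by -1.005 and -0.50 without iPSC-46, which had the highest value for both. Plagl1, a zinc finger factor, differed by -0.78 ± 0.11 without overlap.

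**Figure D4:**
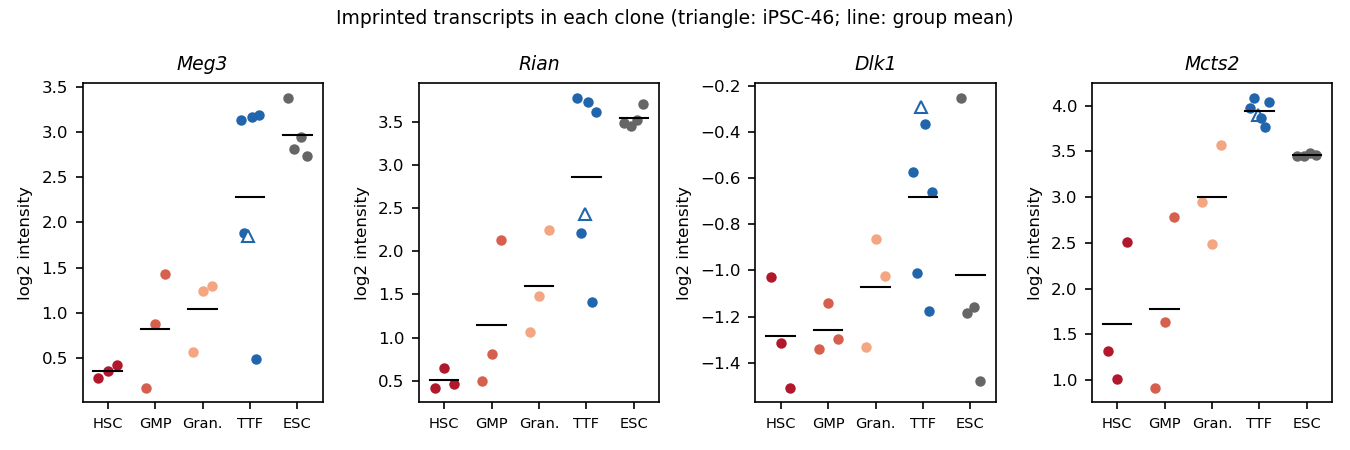
Log2 intensity (y axes) of Meg3, Rian, Dlk1 and Mcts2 in each clone of chimera 2 and in 4 ESC clones (x axes), with a triangle for iPSC-46 and a line for the mean of each origin. Meg3 and Rian split the TTF-derived clones, and Mcts2 is spread in the 9 blood-derived clones and tight, from 3.76 to 4.09, in the 6 TTF-derived clones.

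The core pluripotency factors differed little. Pou5f1, which encodes Oct4, ran from 4.91 to 5.04 in blood-derived clones and from 4.85 to 4.95 in TTF-derived clones (0.06 ± 0.04, adjusted p = 0.214). Nanog (0.14 ± 0.06, adjusted p = 0.0840) and Klf4 (0.29 ± 0.14, adjusted p = 0.137, and 0.14 without iPSC-46) did not pass the test, and Sox2 passed it with 0.20 ± 0.06 (adjusted p = 0.0218), a call lost without the HSC-derived clones, without the GMP-derived clones and without iPSC-45. An array probe cannot tell the cassette's transcripts from those of the endogenous genes unless it lies outside the coding sequence, which was not examined. Myc, the fourth factor of the cassette, was lower in blood-derived clones, from 0.97 through 1.37 to 1.67 there and from 2.07 through 2.12 to 2.67 in TTF-derived clones (-0.79 ± 0.11, adjusted p = 5.29e-05). Over the pluripotency list 7 of 30 measured genes rose and 4 fell, with a median of 0.08. This list and the epiblast list below were called about as often as all genes (32.1%). Fgf4, the growth factor that prepares ESC for differentiation, was 0.44 ± 0.07 higher and Gbx2, a homeobox gene downstream of LIF, 0.57 lower, with an SE of 0.11. Gbx2 overlapped between the classes. Its mean was 0.87 in the clones from HSCs, 0.62 in those from GMPs and 0.08 in those from granulocytes, against 1.09 in TTF-derived clones. The limma test between the blood origins did not pass for it (adjusted p = 0.768). Of the epiblast list, Otx2 was 0.59 ± 0.13 higher, or 0.45 without iPSC-46 (it lies on chromosome 14), and Fgf5 0.61 lower with an SE of 0.09, while 2 of 15 measured genes rose and 3 fell.

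Proliferation genes leaned to higher values in blood-derived clones, with 12 of 27 measured genes up, 3 down and a median of 0.11. Aurkb, the kinase of the chromosomal passenger complex (0.65 ± 0.09, and 0.69 without iPSC-46), Bub1, a spindle checkpoint kinase (0.50 ± 0.05), and E2f1, a factor that drives S phase genes (0.53 ± 0.07), rose without overlap. Ccnd2, a D-type cyclin, went the other way, from 1.31 through 1.84 to 2.14 in blood-derived clones and from 2.61 through 2.85 to 3.23 in TTF-derived clones (-1.09 ± 0.09). Among 22 genes of DNA methylation and Polycomb repression, only 4 were called, against 32.1% of all genes. Of these, 3 rose and 1 fell, and the list median was 0.01. Ezh2 and Ezh1, the alternative catalytic subunits of Polycomb repressive complex 2, were 0.34 ± 0.05 and 0.58 ± 0.13 higher, and Epop, an accessory subunit, differed by -0.47 ± 0.07. Ezh1 and Epop lie on chromosome 11, and differed by 0.72 and -0.51 without iPSC-46.

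Genes of the blood lineage were low in both classes and did not lean to the blood-derived clones. Of 40 measured haematopoietic genes 4 rose and 3 fell, the median was -0.003, and 37 had a mean below 0 in blood-derived clones and 35 in TTF-derived clones. Coro1a, an actin regulator of leukocytes, was 0.37 ± 0.05 higher in blood-derived clones. Cd53, a leukocyte tetraspanin, was lower there, from -1.87 through -1.43 to -1.30 in blood-derived clones and from -0.42 through -0.04 to 0.75 in TTF-derived clones (-1.61 ± 0.16, adjusted p = 4.72e-06). Lcp1, the plastin of leukocytes, was lower as well (-0.56 ± 0.09, and -0.63 without iPSC-46). Immediate early genes fell in 7 of 19 members and rose in 2, endoderm genes fell in 6 of 21 and rose in none, with Thbd, the thrombin receptor thrombomodulin (-1.46 ± 0.11), and Col4a1, a basement membrane collagen (-0.92 ± 0.10), among them. The remaining lists were close to the background of calls or split: trophoblast genes 4 up and 5 down of 20, epidermal genes 2 and 5 of 19, neural genes 1 and 4 of 19, p53 targets 4 and 4 of 18, cholesterol synthesis 5 and 4 of 17, amino acid and ER stress genes 4 and 4 of 25, and 2-cell-like genes 0 and 1 of 9. Without iPSC-46 some of these counts moved by more than 1.5 times: amino acid and ER stress genes had 10 up and 3 down, trophoblast genes 2 and 7, neural genes 1 and 7, and proliferation genes 14 and 5.

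One further gene stands out for its locus. Gt(ROSA)26Sor, the noncoding transcript of the Rosa26 locus, into which transgenes are often placed, ran from 2.81 through 3.07 to 3.36 in blood-derived clones and from 1.34 through 1.66 to 2.40 in TTF-derived clones (1.34 ± 0.13, adjusted p = 4.74e-06). The ESC had 1.23 ± 0.24 (SD, n = 4), nearer to the TTF-derived clones. A2m, the protease inhibitor alpha-2-macroglobulin, was the second largest rise, from 0.97 through 1.52 to 2.04 in blood-derived clones and from -1.46 through -0.52 to 0.10 in TTF-derived clones (2.11 ± 0.21). The other genes among the 15 largest rises included Ndrg2, which lies on chromosome 14 (1.37 ± 0.16, and 1.21 without iPSC-46), Alpk3, a kinase of muscle (1.36 ± 0.12), Inca1 on chromosome 11 (1.21 ± 0.16, and 1.37 without iPSC-46) and Tmem191c (1.25 ± 0.10).

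Set beside ESC, the blood mean was more often the nearer of the 2 class means among the called genes. For 2831 of the 3786 called genes (74.8%) the ESC mean was nearer to the blood mean than to the TTF mean, and with each of the 4 ESC clones left out in turn the share was 71.0 to 80.9%. No test was made of this share. For 1840 of the called genes (48.6%) the ESC mean lay between the blood mean and the TTF mean. For the fibroblast list, 25 of 32 called genes were nearer to the blood mean, for the glycolysis list 24 of 30 and for the meiosis list 17 of 23. The interferon list went the other way, with 2 of 10 nearer to the blood mean, and so did Meg3 and Rian. The ESC varied more than either class in the fibroblast list, whose mean ran from 0.801 to 1.99 over the 4 ESC clones.

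The difference between blood-derived and fibroblast-derived clones of chimera 2 was then set against that in mouse 1 and mouse 2, where the fibroblasts are PFs. In a fit of 42 clones, 1733 of 11807 genes (14.7%) differed in this contrast (697, or 5.9%, more positive in chimera 2 and 1036, or 8.77%, more negative). The animal and the kind of fibroblast cannot be told apart, and without the PF-derived clone iPSC-19 of mouse 1 the count was 1109. The p-values of this contrast measure the spread between clones within each origin group, and not between animals. Ddx60 had a difference of 2.41 in chimera 2, against 0.16 in mouse 1 and 0.07 in mouse 2 (contrast 2.29, adjusted p = 7.31e-08). Of the interferon list, 14 of 25 genes were more positive in chimera 2 and none more negative, with a median difference of 0.18 in chimera 2, -0.22 in mouse 1 and -0.53 in mouse 2. Gbp3 differed by 0.82 in chimera 2, against -0.65 and -1.07 in the 2 mice, and Gbp7 by 0.99, against -0.61 and -0.86. Both contrasts passed, with adjusted p = 0.00601 for Gbp3 and 0.00198 for Gbp7. Adm (1.56 in chimera 2, against 0.48 and -0.47) and Gt(ROSA)26Sor (1.34, against 0.15 and -0.32) also differed in the contrast, with adjusted p = 5.24e-07 and 9.72e-06. For Pou5f1 the difference was 0.06 ± 0.04 in chimera 2, 0.18 ± 0.42 in mouse 1 and 1.68 ± 0.36 in mouse 2. In mouse 2 the mean of the PF-derived clones was thus below that of the blood-derived clones for this core factor. Its contrast did not pass (adjusted p = 0.142).

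Further groups are given for the 3 animals side by side, and not every list is covered. Of the amino acid and ER stress list, 13 of 25 genes were more negative in chimera 2 and 1 more positive. Over all genes these shares were 8.77% and 5.9%. The list medians were 0.04 in chimera 2, 0.29 in mouse 1 and 0.30 in mouse 2. In this list iPSC-46 had the highest mean of the TTF-derived clones (2.51), and the contrast counts without that clone are not given here. The meiosis list had a median of 0.40 in chimera 2, 0.34 in mouse 1 and 0.41 in mouse 2, and 3 of its 36 genes were more positive and 3 more negative in chimera 2. The glycolysis list had medians of 0.57, 0.07 and 0.30, with 12 of 33 genes more positive. The fibroblast list had medians of -0.98, -0.16 and -1.23, so that mouse 1 stood apart, and 8 of 35 genes were more negative and 2 more positive in chimera 2. Meg3 differed by -1.54 in chimera 2, -1.50 in mouse 1 and -0.97 in mouse 2, and its contrast did not pass (adjusted p = 0.734). Mcts2 differed by -1.81, -2.75 and -2.98, and Dcn by -0.98, -1.69 and -2.57, and both were less negative in chimera 2 (adjusted p = 0.0246 and 0.000589). The mean of Gbx2 was lower in blood-derived clones of chimera 2 (-0.57, with overlap and lowest in those from granulocytes). It was higher in those of mouse 1 and mouse 2 (0.66 and 0.87), and the contrast had an adjusted p = 1.28e-06. Chac1, a glutathione-degrading enzyme of the stress response, and Rhox5, an X-linked homeobox gene, were among the 5 largest contrasts (-1.67 each), but did not differ past the threshold within chimera 2. In both, iPSC-46 held the highest TTF-derived value, 1.72 for Chac1 and 3.58 for Rhox5. The differences within chimera 2 were -0.28 and -0.59 with that clone and -0.04 and -0.26 without it. In mouse 1 and mouse 2 the differences were 1.55 and 1.23 for Chac1, and 1.90 and 0.24 for Rhox5.

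**Figure D5:**
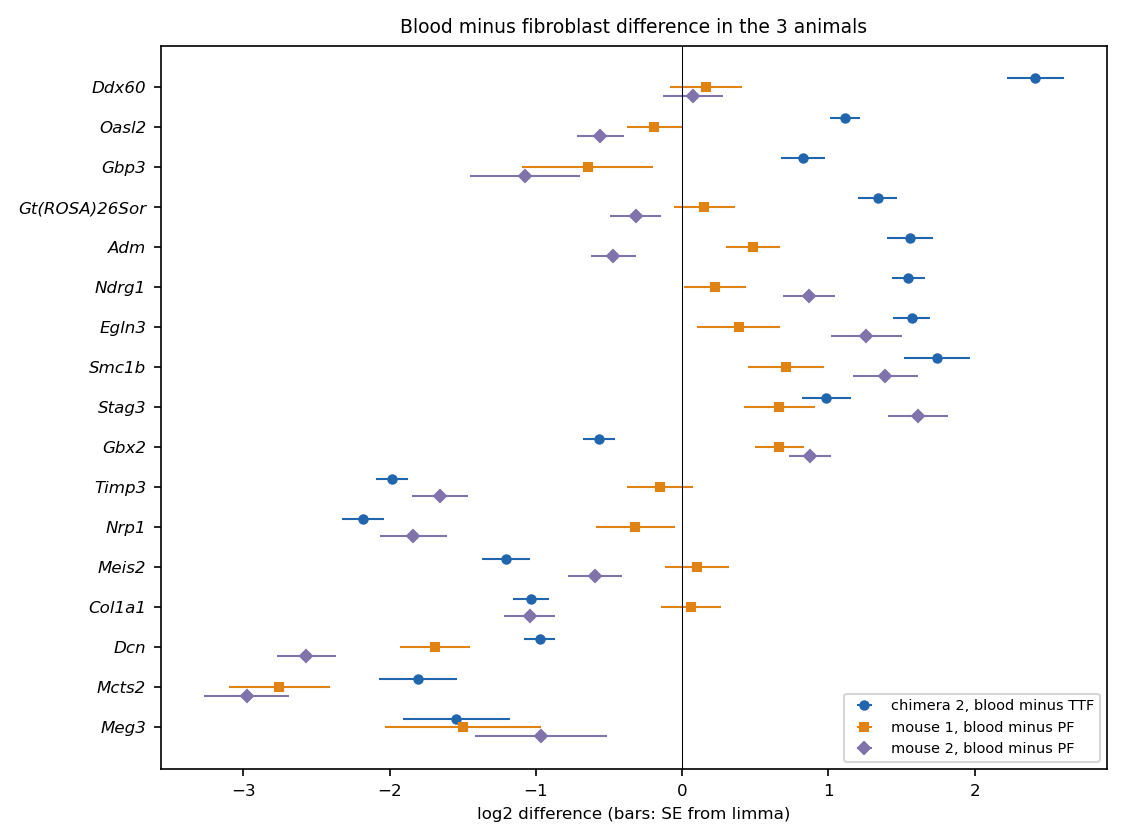
Log2 difference, blood-derived minus fibroblast-derived clones (x axis, bars are SE), of 17 named genes (rows) in chimera 2 (circles, TTF), mouse 1 (squares, PF) and mouse 2 (diamonds, PF). Ddx60 lies at 2.41 in chimera 2 and near 0 in both mice, Gbx2 changes side, and Meg3 lies between -1.54 and -0.97 in all 3.

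Because the fibroblast list moves with the classes, its mean per clone was added to the fit as a covariate. The list separates the classes completely, so the SE of a difference grew 2.93-fold in the median, and 247 genes were called in place of 3786, of which 180 were among the 3786 in the same direction (4.75% of them). Of the 108 named genes that differed without the covariate, 77 lost the call, 17 changed sign and 14 kept both direction and call. Among the 14 were Adm (2.48, adjusted p = 0.00964), Rec8 (1.28, adjusted p = 0.00648), Egln3 (1.72, adjusted p = 0.0376), Ero1a (0.72, adjusted p = 0.0309), Timp3 (-1.77, adjusted p = 0.0204) and Inhba (-1.20, adjusted p = 0.0309), of which Timp3 is itself a member of the list. Col1a1, Col3a1, Postn and Thy1, which also belong to the list, took values from 0.11 to 0.47 there. Of the glycolysis list 8 genes were higher in that fit, of the meiosis list 2 and of the interferon list none. The highest list mean, 2.57, was that of iPSC-46, and the covariate fit was not repeated without that clone. How far feeder or fibroblast RNA enters the other differences was not tested.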

How the data were processed

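RNA of 59 mouse lines was hybridised to Affymetrix arrays, 1 array per line. The values the authors deposited are log2 intensities of 22626 probe sets. The base of 2 and the centring near 0 were inferred from the values, and the sources used here do not state the background correction, the summarisation or the scan batches. Probe sets were named through the platform annotation and updated to GRCm38.p6 symbols: 18003 had 1 gene, 287 several and 4336 none. For each of 11807 genes, the probe set with the largest mean value was kept. No 2 arrays were identical. Samples were grouped by their origin label.

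Differences were fitted with limma 3.58.1 (R 4.3.3) with 1 mean per origin group, using lmFit, then eBayes and 2-sided tests. P-values were adjusted by Benjamini-Hochberg across the 11807 genes at a threshold of 0.05, and the fit was also tested on simulated data. All adjusted p-values are from limma. No count depth exists for arrays, so their number limits the precision. Alternatives were other normalizations, a filter at the 40th percentile, other probe set rules, eBayes settings, sets of clones and a covariate. Genes named are the 15 largest differences in each direction, up to 6 called members per list, the markers, the factors, and the 5 largest or smallest p of the other contrasts. Not all are printed. Members and gene lists were chosen with earlier results of these data known.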

Additional observations from a re-analysis of the deposited data

Results flagged for a closer look

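Among the named genes, 228 sets of values (9 blood-derived or 6 TTF-derived clones) were searched for a clone far from the others with Dixon's 95% criterion, and 22 (9.65%) held one, where chance gives about 1 in 20. Of these, 10 were in blood-derived and 12 in TTF-derived clones, and 9 of the 22 were the clone iPSC-46. In iPSC-46 the log2 intensity lay far above the other TTF-derived clones for Smc1b (0.86), Adm (0.25), Inca1 (-0.73), Dcn (1.22), Ybx2 (0.092), Ddit4 (5.09) and Chac1 (1.72), and far below them for Eomes (-1.14) and Otx2 (1.60). Another TTF-derived clone, iPSC-45, was far above its class for Inhba (1.64) and Myc (2.67) and far below it for Kit (0.50). Among blood-derived clones the values far above the rest were Prl2c2 in iPSC-35 (-0.76) and Rec8 in iPSC-43 (0.43), and those far below were Alcam in iPSC-41 (-1.70), Alpk3 in iPSC-42 (0.93), Inca1 in iPSC-35 (-1.01), Myc in iPSC-43 (0.97), S100a4 in iPSC-43 (1.30), Foxc2 in iPSC-39 (-2.51), Magel2 in iPSC-38 (-2.52) and Ndn in iPSC-39 (-0.46).

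For 41 of the named genes, the limma contrast of the differences between blood-derived and fibroblast-derived clones passed. It sets chimera 2, with TTFs, against the mean of mouse 1 and mouse 2, with PFs. Its p-values measure the spread between clones, and not between animals. The animal and the kind of fibroblast cannot be told apart. Because a mean is used, a gene can be listed although mouse 2 was close to chimera 2. The differences in chimera 2, mouse 1 and mouse 2 were -1.83, -0.34 and -1.82 for Alcam, and -1.48, 0.05 and -1.51 for Timp2. For Ddx60 both mice were far from chimera 2 (2.41, against 0.16 and 0.07). How many listed genes are of each kind was not counted. The contrast, chimera 2 minus the mean of the other 2 animals, was positive on the log2 scale for Ddx60 (2.29), Gbp7 (1.73), Gbp3 (1.69), A2m (1.65), Adm (1.55), Oasl2 (1.49), Gt(ROSA)26Sor (1.42), Igtp (1.22), Dcn (1.16), Mcts2 (1.06), Irgm2 (1.01), Ndrg1 (1.00), Pygl (0.99), Irf1 (0.83), Ccng2 (0.79), Otx2 (0.66), Ybx2 (0.59), Ddit4 (0.55), Ezh1 (0.50), Rec8 (0.47), Fbln1 (0.45) and Ero1a (0.40). It was negative for Chac1 (-1.67), Rhox5 (-1.67), Gbx2 (-1.34), Mgp (-1.16), Nrp1 (-1.10), Timp3 (-1.08), Tfpi2 (-1.02), Ereg (-0.98), Meis2 (-0.96), Foxc2 (-0.83), Ptgs2 (-0.82), Ccn4 (-0.81), Timp2 (-0.75), Alcam (-0.74), Ccnd2 (-0.66), Myc (-0.66), Epop (-0.49), Nrp2 (-0.37) and Plagl1 (-0.37).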

How the results depend on the processing

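The count of genes that differed between blood-derived and TTF-derived clones was 3786. It was 3838 after quantile normalization, 3760 with arrays centred on the median, 3372 of 7084 genes above the 40th percentile, 3799 with the mean of probe sets, 3937 with trend and robust eBayes, 3410 in a fit of all 59 arrays, 3963 with blood as 1 class, and 3202, 3147 and 3162 without the HSC-derived, GMP-derived or granulocyte-derived clones. Every probe set tested on its own gave 6869 of 22626. Centring on the median gave 1958 higher and 1802 lower, against 2148 and 1638. Leaving out 1 clone at a time gave 3333 to 4336. The fibroblast list mean as covariate gave 247, a fit in which the list separates the classes and the SE grows. Between the blood origins the count was 0 in every alternative but probe sets on their own, which gave 1. The contrast with mouse 1 and mouse 2 gave 1733, and 3019 over probe sets, 840 in a fit of all 59 arrays, 1154 with mouse 1 alone, 1413 with mouse 2 alone, and 1109 (without iPSC-19) to 2319 (without iPSC-32) with 1 clone left out. The cause of these shifts was not tested. The ESC share of 74.8% was 71.0 to 80.9% with 1 ESC clone left out, and 81.1% with the MEF-derived clones of chimera 1 in place of ESC. Of 3051 values of 114 named genes under the alternatives, 2940 kept direction and side of the threshold, 84 lost the call, 6 gained it and 21 changed sign, all 21 under the covariate: Pou5f1 (-0.0424), Klf4 (-0.81), Col1a1 (0.13), Col3a1 (0.47), Thy1 (0.23), Postn (0.11), Fbln5 (0.0462), Prrx1 (0.0808), Aldoc (-0.0825), Hormad1 (-0.0111), Hoxc8 (0.0637), Ccl7 (0.00723), Ccl2 (0.22), Tgfbr2 (0.25), Magel2 (0.11), Ndn (0.45), Gbx2 (0.15), Fgf4 (-0.0415), Otx2 (-0.47), Chac1 (0.86) and Rhox5 (1.61). Calls were otherwise lost for Sox2 and Fgf8 without the HSC-derived or GMP-derived clones, for Sox2 without iPSC-45, and for Gbp3 and Irgm2 in the fit of all 59 arrays. No paired analysis was possible because the groups compared share no clone numbers in the labels. All 15 clones come from 1 animal, and values near the lower end of the array understate folds.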
